A study of Homo sapiens with 15 samples.

Results

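Transcripts of 10 genes for NF-κB-driven cytokines and chemokines were examined, namely CXCL1, CXCL2, CXCL3, CXCL5, CXCL8, IL6, IL1A, IL1B, LIF, and CCL2. They were chosen by gene symbol, with earlier results of these data known but no measured value in the rule, and all 10 were present among the 19612 genes of the table. Each of 5 conditions had 3 sequenced RNA libraries, which for vehicle and 1,25(OH)2D3 came from separate passages. The parental line, H1975, derives from a lung adenocarcinoma and carries EGFR mutations. Prolonged exposure to the EGFR inhibitor osimertinib had turned it into the resistant subline H1975–OR, which carries the same mutations. The sources used here describe 1 such subline. H1975 cells received vehicle (Samples 1a–1c). H1975–OR cells received vehicle (2a–2c), 100 nM of the active vitamin D hormone 1,25(OH)2D3 (3a–3c), 500 nM osimertinib (4a–4c), or both agents (5a–5c). All treatments lasted 96 h with doses at 0, 48, and 92 h, in medium with charcoal-stripped serum. The resistant line was otherwise grown in the presence of the inhibitor, so that its vehicle libraries came from cells without the drug during treatment. Treated H1975 cells were not analysed here, so both agents are described in the resistant subline only.

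These ligands are secreted signals of inflammation. In resting cells NF-κB transcription factors are held in the cytoplasm by IκB proteins. Signals from receptors such as those for TNF and IL-1 activate the IκB kinase complex, IκB is degraded, and NF-κB moves to the nucleus and binds κB sites in promoters such as those of CXCL8 and IL6. The CXC chemokines with an ELR sequence (CXCL1, CXCL2, CXCL3, CXCL5, and CXCL8) attract neutrophils through CXCR1 and CXCR2, CCL2 attracts monocytes through CCR2, and IL-6 and LIF signal through the shared chain gp130 (IL6ST) to JAK kinases and STAT3. Carcinoma cells can produce these factors themselves, and some of them, CXCL8 among them, are also expressed downstream of EGFR signaling.

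Promoter sequences are shown because most of the members held the same κB-like motif. The genes were listed as NF-κB-driven, so the choice itself favours such a motif. The share given below is a description and no test. RefSeq promoter windows of GRCh38.p14, reaching from 250 bases before to 50 bases after the gene start, were found for 8 of the 10 genes, and LIF (chr22:30240453-30246759) and CCL2 (chr17:34255274-34257208) were not matched. The κB-like motif GGNNTTTCC, searched on both strands, was present in 6 of these 8 windows, compared with 2198 of 35116 promoters (6.26%) in the whole table. The 6 promoters are printed from 130 to 31 bases before the RefSeq gene start, shortened for CXCL8 and IL6 where an annotated transcript begins, 5′ to 3′ on the strand of the gene, with each motif match in capitals.
CXCL1 (chr4:73869263-73869362, plus strand): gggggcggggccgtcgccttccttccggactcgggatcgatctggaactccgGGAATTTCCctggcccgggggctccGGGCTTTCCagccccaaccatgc
CXCL2 (chr4:74099226-74099325, minus strand): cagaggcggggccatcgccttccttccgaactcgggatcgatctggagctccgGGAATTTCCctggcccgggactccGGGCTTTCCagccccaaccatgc
CXCL3 (chr4:74038720-74038819, minus strand): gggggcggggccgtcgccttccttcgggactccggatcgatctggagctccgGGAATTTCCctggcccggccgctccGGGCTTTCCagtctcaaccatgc
CXCL5 (chr4:73998708-73998807, minus strand): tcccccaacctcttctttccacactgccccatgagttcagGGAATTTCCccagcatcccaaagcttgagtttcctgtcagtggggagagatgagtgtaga
CXCL8 (chr4:73740439-73740518, plus strand): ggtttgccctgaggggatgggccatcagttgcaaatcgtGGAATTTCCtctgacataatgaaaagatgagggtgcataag
IL6 (chr7:22727070-22727146, plus strand): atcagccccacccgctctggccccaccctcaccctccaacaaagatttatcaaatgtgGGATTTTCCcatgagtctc
All matches lay on the gene's own strand between 91 and 53 bases before the gene start. CXCL1, CXCL2, and CXCL3 each held 2 matches, GGAATTTCC and GGGCTTTCC, at nearly the same positions. Their printed stretches are also alike, so they are not separate observations. CXCL8 and CXCL5 shared GGAATTTCC, and IL6 held GGATTTTCC. The windows of IL1A and IL1B held no match to these letters. A match is a description of the sequence, and binding was not measured. The 5 CXC genes lie close together on chromosome 4, from CXCL8 (chr4:73740519-73743716) and CXCL1 (chr4:73869393-73871308) to CXCL5 (chr4:73995642-73998677), CXCL3 (chr4:74036589-74038807), and CXCL2 (chr4:74097040-74099196), while IL6 lies at chr7:22725884-22732002. These gene coordinates are those of GENCODE on GRCh38, which for IL6 and CXCL3 begin further upstream than RefSeq, so that the stretches printed for them lie wholly or partly inside the GENCODE gene.

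The libraries held between 4378030 and 6140120 estimated counts (median 4974785), and a level of 1 CPM, a gene's count relative to its TMM-scaled library total, therefore rested on only a few reads. All genes that passed a filter on low counts entered a quasi-likelihood test in edgeR with Benjamini–Hochberg adjustment, and a gene was called where this adjusted p was below 0.05. Sample 3a was left out of the tests and its values are shown beside the others. Of the 10 members, 7 passed the filter, and CXCL5, IL1A, and IL1B are described by counts alone. A count of 0 could still stand for up to 3 counts, a floor that covers counting error only. The 6 epithelial marker genes summed to between 3181 and 5875 CPM in every library. KRT18 had the highest mean of them in each condition (1896 to 2620 CPM). In vehicle-treated H1975–OR, CDH1, which encodes E-cadherin, was at only 5.20 to 9.40 CPM and EPCAM at only 9.30 to 12.7 CPM. Of 8 leukocyte markers, 3 to 5 were at 0 in every library and the summed level was 11.3 to 63.0 CPM. Endothelial markers summed to 0.817 to 12.9 CPM. In these bulk samples, fewer producing cells and less RNA per cell cannot be told apart.

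The members differed widely in level. Scaled for transcript length, CCL2 led in vehicle-treated H1975–OR with 36.3 ± 15.2 CPM per kb (SD, n = 3), followed by CXCL8 (21.2 ± 19.9), IL6 (6.97 ± 2.19), CXCL2 (5.56 ± 3.58), LIF (4.96 ± 4.35), CXCL1 (2.36 ± 1.70), and CXCL3 (1.83 ± 1.39). Neighbours in this order differed by less than the larger of their SDs. In H1975, CCL2 (14.2 ± 5.20 CPM per kb), CXCL8 (13.5 ± 9.95), and LIF (12.3 ± 2.13) lay within one another's SD above CXCL2 (6.77 ± 1.39) and IL6 (6.72 ± 3.89). CXCL1, CXCL2, and CXCL3 have similar transcripts, and 14.4% of the 31-base stretches of the CXCL1 transcript also occur in CXCL2, so that reads of these genes can have been divided between them and their separate levels are uncertain.

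**Figure D1:**
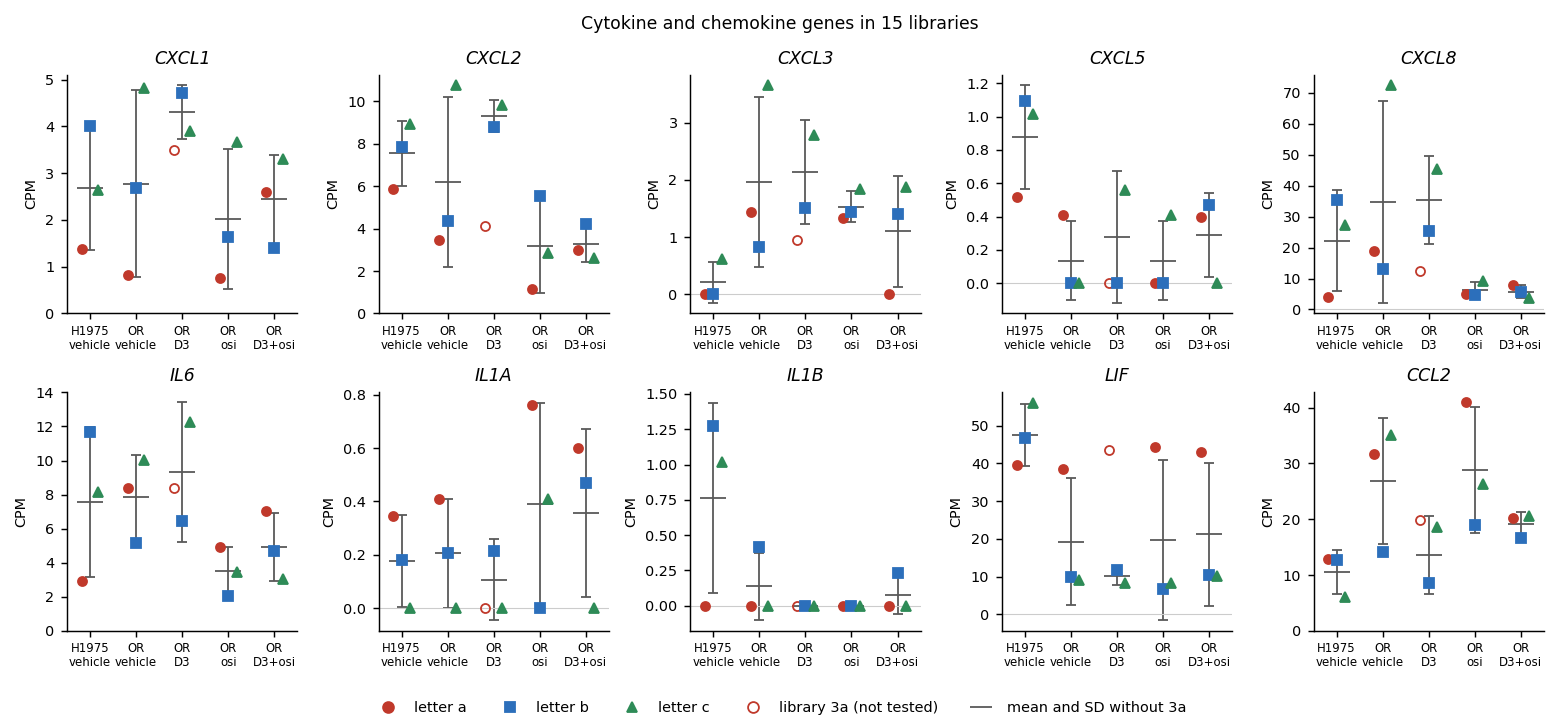
Level of each of the 10 genes (y axis, CPM) in the 15 libraries by condition (x axis). Marker shapes and colors give the replicate letter, the open circle is Sample 3a, and bars give the mean and SD of the other libraries. CXCL8 was low in every library with osimertinib, and LIF in H1975–OR was high in letter a alone.

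Among the chemokines, CXCL8 separated libraries with osimertinib from those without it. CXCL8, a neutrophil attractant also known as interleukin-8, was at 19.0, 13.2, and 72.4 CPM in Samples 2a, 2b, and 2c with vehicle. It was at 12.4, 25.3, and 45.5 CPM in Samples 3a, 3b, and 3c with 1,25(OH)2D3. These 2 conditions without the inhibitor overlapped. With osimertinib it was at 4.94, 4.70, and 9.19 CPM in Samples 4a, 4b, and 4c. With both agents it was at 8.01, 5.63, and 3.77 CPM in Samples 5a, 5b, and 5c. All 6 libraries with the inhibitor lay below all 6 libraries without it, Sample 3a included. The share of all genes that separate in this way is not given here. H1975 did not show a single level, with 3.98, 35.5, and 27.2 CPM in Samples 1a, 1b, and 1c.

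Tested by condition, the lower level of CXCL8 did not pass the threshold. The fitted log2 fold change of osimertinib against vehicle was −2.47 (SE 0.63), a 5.54-fold lower level with an adjusted p of 0.331 by edgeR, in a comparison that called 0.048% of 12503 genes. For both agents against vehicle it was −2.58 (SE 0.64, adjusted p = 0.141 by edgeR), where 0.496% of genes were called. No member passed in either comparison, although 2 members in the first (CXCL8 and IL6) and 1 in the second (CXCL8) had an unadjusted p under 0.05. Of the 12503 genes, 941 and 1558 had such a p by edgeR. DESeq2 called CXCL8 in both (adjusted p = 0.0136 and 0.00323), among 117 and 364 genes. Without Sample 2c, the library with the highest level, the log2 fold change of osimertinib against vehicle was −1.35 with an adjusted p of 0.892 by edgeR. The comparison itself changed with the fit, since a block for the replicate letter raised its calls from 6 to 35 genes and those of both agents against vehicle from 62 to 461, with 0 members among them and an adjusted p for CXCL8 of 0.123 and 0.0634 by edgeR.

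The osimertinib effect over both backgrounds, the mean of the conditions with the inhibitor minus the mean of those without, was added after these values had been seen. In this contrast CXCL8 was lower with the inhibitor by 2.54 on the log2 scale (SE 0.46), a 5.80-fold lower level with an adjusted p of 0.0275 by edgeR, where 2.04% of genes were called. As the line was otherwise kept in osimertinib, a fall with the drug and a rise after its withdrawal cannot be told apart. CXCL8 was the only one of the 7 tested members to pass. As the contrast was added after the values had been seen, its p for CXCL8 is a description. The difference held its direction in all alternatives. Its adjusted p by edgeR rose to between 0.056 and 0.129 when any one of Samples 3b, 3c, 4b, 4c, 5b, or 5c was left out, it was 0.0483 with Sample 3a kept in, and it was 0.0158 with the replicate block, which raised the genes called from 255 to 931.

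IL6 and CXCL2 had lower values with osimertinib that did not pass. IL6, a gp130 ligand, was at 8.38, 5.17, and 10.0 CPM in Samples 2a, 2b, and 2c and at 4.94, 2.05, and 3.47 CPM in Samples 4a, 4b, and 4c. These 2 groups did not overlap, and the log2 fold change was −1.16 (SE 0.48, adjusted p = 0.619 by edgeR). The share of all genes that separate between these groups is not given here. With both agents IL6 was at 7.01, 4.70, and 3.06 CPM, which overlapped with vehicle. Over both backgrounds its log2 fold change was −1.04 (SE 0.35, adjusted p = 0.176 by edgeR). CXCL2 had a median of 2.93 CPM in the 6 libraries with osimertinib (range 1.14 to 5.52) and of 8.80 CPM in the 5 tested libraries without it (range 3.47 to 10.8). Its groups overlapped, and its log2 fold change over both backgrounds was −1.24 (SE 0.44, adjusted p = 0.197 by edgeR). CXCL1 ranged from 0.760 to 3.68 CPM with the inhibitor and from 0.817 to 4.81 CPM without it, and CXCL3 from 0 to 1.89 CPM and from 0.826 to 3.66 CPM.

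**Figure D2:**
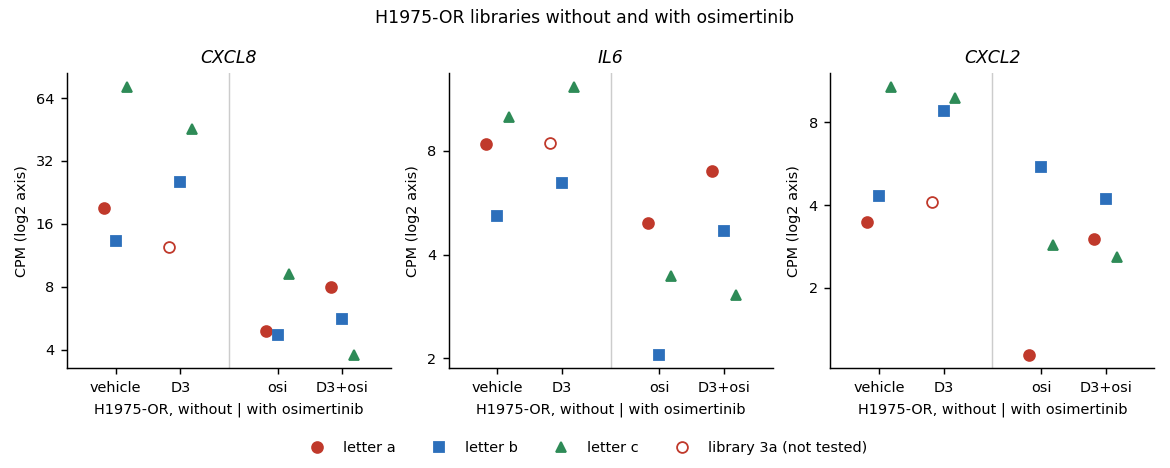
Levels of CXCL8, IL6, and CXCL2 (y axis, CPM on a log2 axis) in the 12 H1975–OR libraries by treatment (x axis), without osimertinib left of the line and with it to the right. Shapes give the replicate letter and the open circle is Sample 3a. The CXCL8 libraries with osimertinib reached at most 9.19 CPM, below the lowest without it at 12.4 CPM.

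Among the genes of the same pathway, none of the 5 tested receptor genes, 8 NF-κB and IκB kinase genes, 11 feedback regulators, 8 upstream adaptors, 8 other NF-κB targets, or 7 JAK–STAT genes passed in the osimertinib contrast over both backgrounds, in either direction. The 11 feedback genes, which include NFKBIA and TNFAIP3, had a median log2 fold change of 0.34, compared with −0.67 for the 7 members and 0.01 for all genes tested. Of the 6 epithelial markers, KRT19 was lower by 1.60 on the log2 scale (SE 0.22, adjusted p = 0.0107 by edgeR) in the same contrast, and its adjusted p was 0.0612 without Sample 3c. The part of KRT19 or other epithelial genes in the CXCL8 values was not tested.

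1,25(OH)2D3 produced no call among the members. Against vehicle, 0 of 7 tested members passed by edgeR or DESeq2 and 0 had an unadjusted p under 0.05, where 0.152% of 12513 genes were called (19 genes, all higher). Of these 12513 genes, 910 had such an unadjusted p by edgeR. Added to osimertinib it again called 0 of 7 by either tool, with 0.096% of genes called, and when its effect in the presence of the inhibitor was set against that in its absence, edgeR called 0% of genes, with 330 at an unadjusted p under 0.05 and 11 called by DESeq2, none of them a member.

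CCL2, the monocyte attractant, had lower values with 1,25(OH)2D3 that did not pass. Without osimertinib it was at 31.7, 14.1, and 35.0 CPM in Samples 2a, 2b, and 2c and at 19.8, 8.58, and 18.6 CPM in Samples 3a, 3b, and 3c. With osimertinib it was at 41.0, 19.0, and 26.4 CPM in Samples 4a, 4b, and 4c and at 20.2, 16.7, and 20.5 CPM in Samples 5a, 5b, and 5c. The groups overlapped in both settings. In the 3 pairs of the same letter with osimertinib, the library that also had 1,25(OH)2D3 was at 0.493 to 0.876 of its partner. The log2 fold change was −0.98 (SE 0.51, adjusted p = 0.745 by edgeR) without and −0.60 with osimertinib (adjusted p = 1 by edgeR). The 1,25(OH)2D3 effect over both backgrounds, also added after the values had been seen, was −0.79 (SE 0.31, unadjusted p = 0.0281 and adjusted p = 0.59 by edgeR), in a contrast that called 0.368% of genes. The replicate block gave it an adjusted p of 0.196 by edgeR.

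One receptor upstream of NF-κB rose with 1,25(OH)2D3. TNFRSF1A, which encodes TNF receptor 1, was at 13.3, 7.85, and 16.4 CPM in Samples 2a, 2b, and 2c and at 82.0 and 105.1 CPM in Samples 3b and 3c, while Sample 3a stood at 19.8 CPM. It rose by 2.90 on the log2 scale (SE 0.29, adjusted p = 0.00741 by edgeR), and by 2.18 with both agents against vehicle (SE 0.33, adjusted p = 0.0274 by edgeR). With osimertinib alone it was at 33.1, 65.4, and 66.8 CPM, a log2 fold change of 2.14 with an adjusted p of 0.0814 by edgeR and of 0.0366 with the replicate block. With both agents it was at 43.9, 65.5, and 61.5 CPM, which overlapped with osimertinib alone (log2 fold change 0.04, adjusted p = 1 by edgeR). The 1,25(OH)2D3 effect with the inhibitor minus that without it was −2.86 on the log2 scale, a difference that edgeR did not call (adjusted p = 0.543) and DESeq2 did (7.04e-05). With Sample 3a kept in, the adjusted p by edgeR was 0.233 for 1,25(OH)2D3 and 0.174 for both agents. The first call was also lost with the replicate block (adjusted p = 0.0787 by edgeR) and without Sample 3c (0.065), and the second without any one of Samples 2b, 2c, 5b, or 5c (0.0795 to 0.109). Its ligand gene TNF held 0 or 1 counts in each of the 15 libraries. It was the only gene called by edgeR for 1,25(OH)2D3 among the receptor, NF-κB, feedback, adaptor, target, and JAK–STAT lists, while CDH1, an epithelial marker, rose by 4.22 on the log2 scale (SE 0.51, adjusted p = 0.024 by edgeR), a call that any library left out of the vehicle or 1,25(OH)2D3 groups removed (0.0593 to 0.0977).

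**Figure D3:**
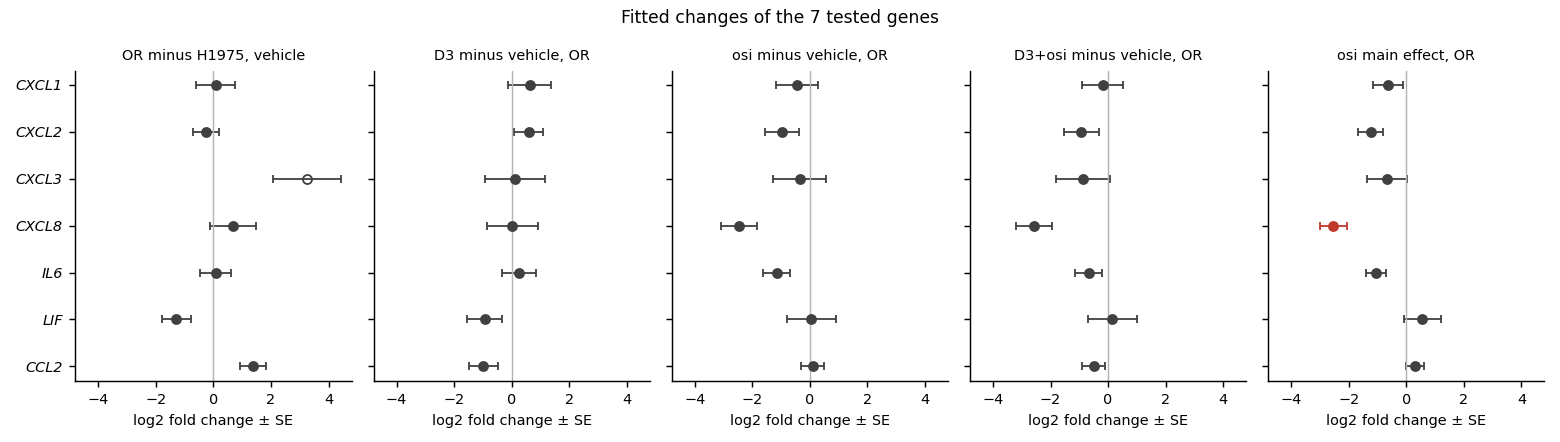
Fitted log2 fold change (x axis, points with SE bars) of the 7 tested genes in 5 contrasts, with D3 for 1,25(OH)2D3, osi for osimertinib, and OR for H1975–OR. The red point is CXCL8 in the osimertinib contrast over both backgrounds (−2.54), the one value past the threshold. That contrast was added after the values had been seen. The open point is CXCL3 between the lines, whose H1975 libraries lay at or under 3 counts.

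Between the lines, 0 of the 7 tested members passed in vehicle-treated H1975–OR against H1975, where 20.1% of 12513 genes were called (2521 genes). An unadjusted p under 0.05 by edgeR was found for 3 members (CCL2, CXCL3, and LIF) and for 4327 of the 12513 genes. DESeq2 called 2 members (CCL2 and LIF) and 3041 genes. CCL2 and CXCL3 had higher values and LIF lower values in all 3 H1975–OR libraries than in any H1975 library. CXCL5, below the filter, was also lower in all of them. The share of all genes that separate between the lines in this way is not given here. CCL2 was at 12.8, 12.7, and 6.1 CPM in Samples 1a, 1b, and 1c, with a log2 fold change of 1.36 (SE 0.45, adjusted p = 0.0667 by edgeR). DESeq2 gave 0.0276, and edgeR gave 0.0427 with all 14 libraries in one fit and 0.042 without Sample 2b. CXCL3 had 0, 0, and 3 counts in Samples 1a, 1b, and 1c and 7, 4, and 19 counts in Samples 2a, 2b, and 2c. The summed counts gave a ratio of 10.8, with an exact 95% interval of 3.37 to 55.6 that covers counting error only, and the adjusted p was 0.0868 by edgeR. Without Sample 1c this p was 0.0477.

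The 3 members below the filter were nearly silent. CXCL5, another neutrophil attractant, had 3, 6, and 5 counts in Samples 1a, 1b, and 1c and 0 to 3 counts in each of the 12 H1975–OR libraries, and the summed counts of H1975 against vehicle-treated H1975–OR gave a ratio of 6.45 with an exact 95% counting interval of 1.48 to 58.5. IL1B, an activator of NF-κB itself, had 0, 7, and 5 counts in H1975 and 0 to 2 in each H1975–OR library, a ratio of 5.53 in the same comparison (1.23 to 50.9). These intervals leave out the spread between libraries. IL1A had 0 to 4 counts in every library. These 3 genes were too low for the model at this depth.

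LIF, a cytokine of the IL-6 family, separated the replicate letters of H1975–OR. In H1975 it was at 39.6, 46.8, and 56.1 CPM. In H1975–OR all 4 libraries of letter a were near that level, at 38.6 CPM with vehicle, 43.5 with 1,25(OH)2D3, 44.3 with osimertinib, and 43.1 with both agents. The 8 libraries of letters b and c were at 6.75 to 11.8 CPM, whatever the treatment. The 2 sets did not overlap, and the share of all genes that separate by letter in this way is not given here. As Sample 3a was left out, the tested 1,25(OH)2D3 libraries were of letters b and c only, and the log2 fold change of LIF against vehicle was −0.93 (adjusted p = 0.81 by edgeR). It was 0.16 with Sample 3a kept in and 0.086 without Sample 2a. Between the lines LIF had a log2 fold change of −1.29 (SE 0.51, adjusted p = 0.111 by edgeR). Without Sample 2a it fell by 2.32 (adjusted p = 0.00107 by edgeR), and DESeq2 gave an adjusted p of 0.0493 with all libraries.

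Letter a was therefore compared with letters b and c across the 11 tested H1975–OR libraries, with treatment as a term, after the values had been seen. LIF was higher in letter a by 2.23 on the log2 scale (SE 0.17, adjusted p = 0.00036 by edgeR), where 12.4% of genes were called (1546 genes). As the LIF values had prompted the contrast, this p is a description. The fit also counted libraries of the same letter as separate replicates. Their deviations from the group means correlated, at 0.31 to 0.464 for letter a among vehicle, osimertinib, and both agents. All p-values and calls of this contrast are therefore descriptions. Sample 3a, which was not in the fit, also had the high level. LIF was the only tested member called. Of the 8 other NF-κB targets, BIRC3 (log2 fold change 1.96) and TRAF1 (1.29) were higher and PTGS2 (−3.20) and TNFAIP2 (−0.60) lower in letter a (adjusted p of 0.00174, 0.0053, 0.00305, and 0.0189 by edgeR). PTGS2, which encodes cyclooxygenase-2, was at 1.33 to 12.5 CPM in the 4 libraries of letter a and at 19.4 to 183 CPM in the other 8. STAT3 (0.45), JAK1 (0.37), and CYLD (0.62) were also higher. The calls of TNFAIP2, STAT3, and JAK1 were lost without Sample 4a or Sample 5a (adjusted p of 0.0655 to 0.11 by edgeR). REL, an NF-κB subunit, was called lower, with 0, 0, 3, and 5 counts in Samples 2a, 4a, 5a, and 3a and 5 to 27 counts in the libraries of letters b and c. CDH1 was higher in letter a by 0.75 on the log2 scale (adjusted p = 0.0352 by edgeR), and leukocyte markers summed to 23.5 to 63.0 CPM in letter a and 11.3 to 32.7 CPM in letters b and c, and the part of these markers in the result was not tested. What the letter stands for is not given in the sources used here, which do not tie the passages to letters.

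**Figure D4:**
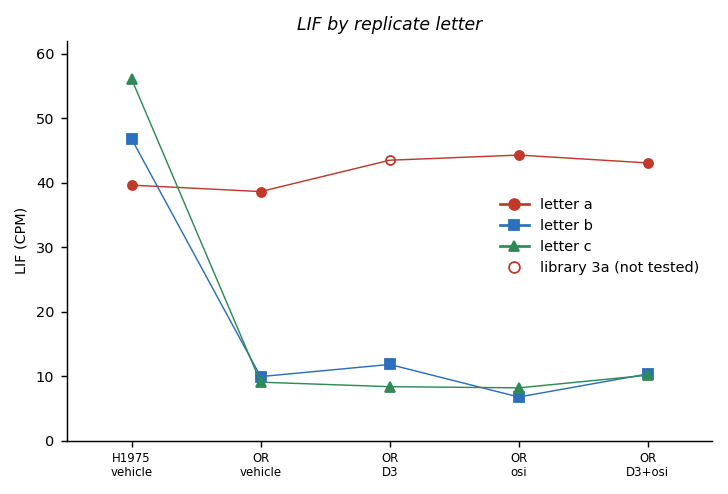
LIF level (y axis, CPM) by condition (x axis), with lines joining libraries of the same replicate letter. Letter a stayed between 38.6 and 44.3 CPM in H1975–OR while letters b and c lay at 6.75 to 11.8 CPM. The open circle is Sample 3a.

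By the root mean square difference between the 5 centred condition means of log2(CPM + 2), the pattern of LIF was most like those of NCAPG2, RAB11FIP4, RFC4, DIAPH2, and NEIL3 (differences of 0.0977 to 0.113) among 10659 genes with a mean of at least 5 CPM. The pattern of CCL2 was most like those of ARG2, PDGFC, ID4, UGCG, and RCAN1 (0.0531 to 0.147). These are descriptions over 5 conditions with no test. The means of LIF depend on the letters in each condition, since that of 1,25(OH)2D3 (10.1 CPM) held no library of letter a and the other H1975–OR means (19.2 to 21.2 CPM) each held one.

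Chemokine receptors were at or near 0, with 0 counts of CXCR1 in all 15 libraries, at most 3 of CXCR2, and at most 1 of CCR2. The gp130 receptors were expressed and higher in H1975–OR. IL6ST, the shared chain, was at 237, 293, and 295 CPM in Samples 1a, 1b, and 1c and at 396, 621, and 492 CPM in Samples 2a, 2b, and 2c, a rise of 0.89 on the log2 scale (SE 0.18, adjusted p = 0.0102 by edgeR). LIFR, the LIF receptor, was at 105, 118, and 128 CPM and at 193, 260, and 217 CPM, a rise of 0.95 (SE 0.13, adjusted p = 0.0026 by edgeR). IL1RN, the IL-1 receptor antagonist, fell, from 8, 11, and 19 counts to 0, 1, and 0 counts (adjusted p = 0.0285 by edgeR), a call that was lost when any one of Samples 2a, 2b, or 2c was left out (adjusted p of 0.0588 to 0.0881). No gene of this list of receptors and antagonists, which does not hold TNFRSF1A, passed in any treatment contrast.

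Upstream of NF-κB the changes between the lines went both ways. Of 8 adaptor genes, 3 rose and 2 fell in H1975–OR. TNFRSF1A fell by 2.09 on the log2 scale (SE 0.27, adjusted p = 0.00174 by edgeR), from 50, 65.5, and 46.7 CPM in Samples 1a, 1b, and 1c. IRAK1, a kinase of the IL-1 receptor pathway, fell by 0.99 (SE 0.11, adjusted p = 0.000951 by edgeR), and TRAF6, the ubiquitin ligase that acts after it, rose by 0.83 (SE 0.17, adjusted p = 0.0102 by edgeR). RIPK1, which acts at TNF receptor 1, rose by 0.52 (adjusted p = 0.0435 by edgeR). Of 8 NF-κB and IκB kinase genes 1 was called, CHUK, which encodes IKKα and fell by 0.46 (SE 0.13, adjusted p = 0.0402 by edgeR). None of the 11 feedback regulators or 7 JAK–STAT genes was called. Of the 8 tested other NF-κB targets, IER3 rose by 0.98 and TNFAIP2 fell by 0.55 (adjusted p of 0.0193 and 0.0265 by edgeR). LIFR, TNFRSF1A, IRAK1, and TRAF6 kept their calls in every alternative fit, IL6ST lost its call with Sample 3a kept in (adjusted p = 0.0675), and CHUK, IER3, TNFAIP2, and RIPK1 were less stable. Leaving out any one of Samples 1b, 1c, 2b, or 2c raised the adjusted p to between 0.0797 and 0.13 for CHUK and between 0.0526 and 0.0608 for IER3. The call of TNFAIP2 was lost without Sample 1a, 1b, 1c, or 2b (0.0518 to 0.0829), and that of RIPK1 without any one of the 6 libraries (0.0535 to 0.145). The epithelial markers CDH1, EPCAM, KRT19, and KRT7 fell in the same comparison, with log2 fold changes of −5.11, −3.69, −1.74, and −1.46. A further marker of the 6, KRT18, was higher (log2 fold change 0.38, adjusted p = 0.0328 by edgeR), a call lost without Sample 1a, 1b, 1c, 2b, or 2c (0.0578 to 0.119). The leukocyte marker CD68 had a log2 fold change of −1.18, with an adjusted p of 0.0189 by edgeR that rose to between 0.0514 and 0.0715 without Sample 1a, 1b, or 2b. Their part in these results was not tested.

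**Figure D5:**
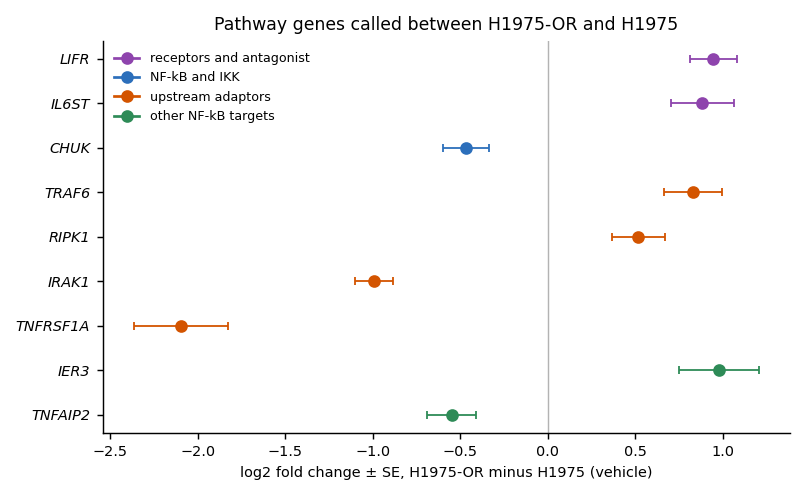
Log2 fold change with SE (x axis) of pathway genes with an adjusted p under 0.05 in vehicle-treated H1975–OR against H1975, colored by list, with at most 4 genes a list. LIFR and IL6ST lie above 0, and TNFRSF1A lies lowest of the drawn genes at −2.09. IL1RN, which was also called (log2 fold change −4.715, adjusted p = 0.0285 by edgeR), is not drawn.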

How the data were processed

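Stranded total RNA was sequenced in paired ends by the authors, who assigned reads to human transcripts with Kallisto and summed them to genes with tximport. The deposited values are these estimated counts, per gene, scaled neither for library size nor for gene length. The submitters' processing notes name GRCh38 (hg38), CASAVA 1.8.2, STAR 2.5.2b, and kallisto 0.43.0, and the transcript annotation and tximport settings are not given in the sources used here. Kallisto divides reads of similar transcripts between genes.

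The rounded values entered edgeR 4.0.16 (R 4.3.3) with TMM scaling, filterByExpr by group (minimum count 10, minimum total 15), and glmQLFTest, two-sided. The lines were compared, and 1,25(OH)2D3 was set against vehicle, in a model of 8 libraries (12513 genes). The other contrasts came from a model of the 11 H1975–OR libraries (12503 genes). Both left out Sample 3a, following the published analysis. Groups were taken from the labels. As nothing ties the passages to separate derivations of H1975–OR, p-values measure the spread between these samples. CPM per kb used canonical transcript lengths of the GENCODE annotation of GRCh38. The 95% interval and the floor of 3 counts cover counting error only.

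The members and gene lists were chosen with earlier results of these data known. All members were named in each comparison. Of the other lists, genes past the threshold in at least one comparison were named, at most 4 per list and comparison by size of change, and for the 2 members with the highest mean CPM the 5 most similar genes. Counts of chemokine receptors and of TNF, KRT18, and the refits behind lost calls, were singled out after their values were seen. For libraries of the same letter, deviations from the group means correlated at 0.118 to 0.464 between H1975–OR treated with vehicle, osimertinib, and both agents, above 0.1 in each of the 9 pairs, and at −0.0296 to 0.0219 between vehicle-treated H1975 and H1975–OR. The letters were taken as pairing the former. Apart from the contrast of the letters, the main fits held no term for the letter. Their p-values and shares of genes called leave this pairing out, and the replicate block is given as an alternative. DESeq2 1.42.0, RLE scaling, other filters, Sample 3a kept in, a replicate block, all 14 libraries in one fit, and leaving out each library were tried as alternatives. Letters b and c alone, the contrasts over both backgrounds, the contrast of the letters, and a fit of 1,25(OH)2D3 against vehicle in 11 libraries were added after the data had been seen. The test was tried on simulated counts with 200 changed genes.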

Additional observations from a re-analysis of the deposited data

Results flagged for a closer look

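Sample 3a, which was left out of the tests apart from the refits that kept it in, had a LIF level of 43.5 CPM, above the 8.35 and 11.8 CPM of the other libraries treated with 1,25(OH)2D3 and close to the other libraries of letter a (38.6 to 44.3 CPM). This value stood out because it came from data outside the comparisons. The cause was not tested.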

How the results depend on the processing

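Of 17 reported folds of members (240 refits), 1 changed sign. The log2 fold change of LIF with 1,25(OH)2D3 against vehicle, −0.93, was 0.16 with Sample 3a kept in, 0.0858 with letters b and c alone, 0.15 with 11 libraries and the replicate block, and −1.27 to 0.0860 on leaving out each library, and none of these was called. Of 859 refits over all tested members 86 had the other sign, none with an adjusted p under 0.05. Of 481 refits of 33 reported folds of other genes, 84 lost the call, 7 gained it, and 4 changed sign. These 4 were of TNFRSF1A for both agents against osimertinib, which was −0.0681 with letters b and c alone and −0.227 to 0.198 on leaving out each library (−0.227 without Sample 4a, −0.0714 without 5b, and −0.0194 without 5c), none called. These counts compare how many genes passed and do not say which.

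DESeq2 called 2 members between the lines, and 1 each for osimertinib and for both agents against vehicle, where edgeR called 0. It called 124 genes for 1,25(OH)2D3 against vehicle, 117 for osimertinib, 66 for both agents against osimertinib, 364 for both against vehicle, 757 and 197 for the osimertinib and 1,25(OH)2D3 effects over both backgrounds, and 11 for the difference of the 1,25(OH)2D3 effects. With Sample 3a kept in, 1636 genes were called between the lines, 5 and 25 for both agents against osimertinib and against vehicle, and 98 for osimertinib over both backgrounds. The counts for 1,25(OH)2D3 against vehicle were 32 with no filter, 29 with at least 10 counts in every library, 29 with all 14 libraries, and 12 with the 11 H1975–OR libraries. All 14 libraries in one fit gave 12 genes for osimertinib, 98 for both agents against vehicle, and 1 member between the lines. Letters b and c alone gave 1 member between the lines and 80, 285, and 770 genes for osimertinib, both agents, and osimertinib over both backgrounds. The cause was not tested.

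With the replicate block, 35 genes were called for osimertinib, 33 and 461 for both agents against osimertinib and against vehicle, 931 for osimertinib over both backgrounds, and 168 for 1,25(OH)2D3 over both. The block moved no member past the threshold in either direction. For 1,25(OH)2D3 against vehicle it gave 9 genes, or 48 with 11 libraries. Pairing by letter could not be judged there, since without Sample 3a the deviations of 3b and 3c mirror each other. Their correlations with the vehicle libraries of the same letter were 0.0698 and 0.108.

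Leaving out each library in turn gave 1426 to 2835 genes and 0 to 1 member between the lines, 5 to 18 genes for 1,25(OH)2D3, 1 to 29 for osimertinib, 3 to 9 and 4 to 110 for both agents against osimertinib and vehicle, 24 to 471 genes and 0 to 1 member for osimertinib over both backgrounds, 11 to 46 for 1,25(OH)2D3 over both, 0 to 1 for the difference, and 508 to 1410 for the letters. At this depth CXCL5, IL1A, and IL1B could not be tested.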
